A study of Mus musculus with 2 samples.

Results

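ATAC-seq, an assay that uses the Tn5 transposase to tag exposed DNA, was performed on cardiac progenitor cells (CPCs) derived from mouse embryonic stem (ES) cells. The peaks described here lay 10 to 50 kb downstream of the transcription start site (TSS) assigned to them. A peak was taken from the distinct intervals of the deposited list when its signed distance, positive in the direction of transcription, was over 10 kb and at most 50 kb, and its width was under 1500 bp. This gave 3223 of 26232 distinct peaks (12.3%). The 2 samples were replicates of 1 group, CPCs at day 5 of directed differentiation of E14 Tg(Nkx2-5-EmGFP) ES cells, for which the labels give the strain C57BL/6 and no knockdown. Per the study's methods the replicates were separate differentiations, and GFP from the Nkx2-5 reporter marks only a part of such cultures, so a peak may come from CPCs or from the other cells present. Both replicates share 1 deposited list with no value per replicate and no peak height. Read depth and replicate error are therefore unknown, and the Isl1 knockdown cells that the series also names were not analysed here.

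Open sites at this range are mostly distal regulatory elements. Enhancers hold short words bound by lineage factors such as GATA proteins and by TEAD factors, the DNA-binding partners of the Hippo pathway co-activator YAP. Other distal sites are bound by CTCF, which anchors chromatin loops and insulates neighbouring domains. Introns are a common home of enhancers, and the nearest start site is a convenient label that need not be the gene an element regulates.

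Of the 16 motifs searched on both strands in the central 200 bp of each peak, 6 were picked for display. They are words of factors with roles in the heart lineage and of TEAD, which is not particular to it. These were GATA (searched as AGATAA or else AGATAG, likewise TGATAA or else TGATAG), TEAD (CATTCC), MEF2 (by its named consensus), NKX2-5 (TNAAGTG), ISL1 (CTAATG) and T-box (AGGTGTGA). Among 40 of the 41 peaks of listed cardiac, Hippo, signalling and sarcomere genes, 1 being left out by its chromosome, 8 held 2 of these 6 motifs and none held more. Of all 3223 downstream peaks, 53 held at least 3 of the 6. The 8 windows are shown because each holds words of 2 of these 6 motifs, often far apart, in open chromatin of genes with known roles in the heart. Each is the central 200 bp of its peak in mm9 (NCBIM37), plus strand, with the words of the 6 motifs in capitals.
Tead4 chr6:128235947-128236146: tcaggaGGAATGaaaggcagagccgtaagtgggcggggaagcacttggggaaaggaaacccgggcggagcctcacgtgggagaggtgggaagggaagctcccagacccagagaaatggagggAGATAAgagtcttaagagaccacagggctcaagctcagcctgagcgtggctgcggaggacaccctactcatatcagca
Gli3 chr13:15579235-15579434: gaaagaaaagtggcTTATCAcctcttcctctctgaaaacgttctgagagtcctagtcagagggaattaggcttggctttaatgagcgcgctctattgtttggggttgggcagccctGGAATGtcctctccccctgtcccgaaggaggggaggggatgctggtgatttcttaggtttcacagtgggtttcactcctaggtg
Actn2 chr13:12406005-12406204: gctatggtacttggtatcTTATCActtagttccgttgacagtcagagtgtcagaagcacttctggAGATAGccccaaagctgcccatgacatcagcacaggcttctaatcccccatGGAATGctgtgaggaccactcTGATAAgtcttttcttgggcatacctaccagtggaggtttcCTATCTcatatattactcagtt
Irx4 chr13:73427765-73427964: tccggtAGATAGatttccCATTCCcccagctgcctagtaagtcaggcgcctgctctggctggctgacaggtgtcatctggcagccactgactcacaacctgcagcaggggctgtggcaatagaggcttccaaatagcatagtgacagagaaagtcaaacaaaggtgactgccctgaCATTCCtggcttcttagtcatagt
Tead1 chr7:119938170-119938369: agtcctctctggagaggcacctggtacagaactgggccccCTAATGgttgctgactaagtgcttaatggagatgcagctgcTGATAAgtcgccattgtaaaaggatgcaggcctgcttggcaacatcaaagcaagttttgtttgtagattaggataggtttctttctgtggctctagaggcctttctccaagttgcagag
Vgll4 chr6:114833471-114833670: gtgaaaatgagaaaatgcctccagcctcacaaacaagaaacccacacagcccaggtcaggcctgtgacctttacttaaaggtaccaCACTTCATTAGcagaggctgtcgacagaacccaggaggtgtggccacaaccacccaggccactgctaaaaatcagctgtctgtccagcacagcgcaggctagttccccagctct
Gli3 chr13:15596425-15596624: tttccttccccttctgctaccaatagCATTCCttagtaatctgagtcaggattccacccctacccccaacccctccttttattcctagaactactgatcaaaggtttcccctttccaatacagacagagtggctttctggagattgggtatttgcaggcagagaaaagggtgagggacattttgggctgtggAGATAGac
Fgf10 chr13:119547761-119547960: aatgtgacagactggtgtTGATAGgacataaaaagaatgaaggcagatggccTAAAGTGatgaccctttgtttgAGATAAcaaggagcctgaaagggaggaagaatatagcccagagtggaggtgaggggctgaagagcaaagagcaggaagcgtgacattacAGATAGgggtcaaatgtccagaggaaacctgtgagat
GATA and TEAD words were both present in 5 of the 8 windows, which were picked for holding the most motifs. Over all downstream peaks 162 (5.03%) held both, beside 4.54% from the product of the 2 shares. The Actn2 window, in an intron of the gene for the Z-disc protein alpha-actinin 2, held 4 GATA words and 1 TEAD word. In Vgll4 the NKX2-5 and ISL1 words overlapped by 2 bases. The Irx4 window, past the end of a gene for a ventricular homeodomain factor, carried 2 TEAD words and 1 GATA word.

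Isl1, the LIM-homeodomain factor of the second heart field, had 2 of the peaks, and their windows are shown because the study is about this gene. The nearer one, chr13:117087111-117088162, was 1052 bp wide, lay 12260 bp downstream of the Isl1 TSS and 841 bp past the annotated end, and held none of the 6 motifs. The farther one, chr13:117083805-117084694, was 890 bp wide, lay 15647 bp downstream and 4228 bp past the end, and held 1 GATA word.
Isl1 chr13:117084150-117084349: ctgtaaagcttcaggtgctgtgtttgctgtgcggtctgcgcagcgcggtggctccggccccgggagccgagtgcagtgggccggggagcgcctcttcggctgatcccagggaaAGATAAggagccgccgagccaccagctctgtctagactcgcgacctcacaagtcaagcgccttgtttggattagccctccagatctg
Isl1 chr13:117087537-117087736: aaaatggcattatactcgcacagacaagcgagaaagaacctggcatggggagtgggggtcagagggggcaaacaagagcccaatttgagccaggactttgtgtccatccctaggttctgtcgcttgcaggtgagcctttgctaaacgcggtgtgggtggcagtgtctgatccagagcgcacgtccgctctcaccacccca
One further window, of a Mef2d peak, is shown for its CTCF word, in capitals, and was chosen after its sequence had been seen. Its midpoint was intronic, whereas the word lay in the coding exon before that intron.
Mef2d chr3:87962014-87962213: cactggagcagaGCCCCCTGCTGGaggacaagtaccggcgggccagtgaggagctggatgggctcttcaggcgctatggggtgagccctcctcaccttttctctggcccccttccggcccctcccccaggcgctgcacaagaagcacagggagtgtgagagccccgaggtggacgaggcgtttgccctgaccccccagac

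The number of peaks fell with distance from the TSS. There were 701 peaks at 10 to 15 kb, 486 at 20 to 25 kb, 340 at 30 to 35 kb and 241 at 45 to 50 kb. Upstream of TSSs, in the same range and under the same width limit, there were 2593 peaks, and they fell from 653 to 142 over the same bins. Downstream peaks outnumbered upstream peaks 1.07 to 1 in the nearest bin and 1.70 to 1 in the farthest. The median width was 886 bp, with quartiles of 734 and 1057 bp and a range of 388 to 1499 bp. These distances and widths are what the peaks were chosen by and carry no test.

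The bounds fell within a continuous range of values. The nearest peaks inside the lower distance bound were at 10002 bp (D830013O20Rik) and 10019 bp (Mir6940), and those just outside it were at 10000 bp (Bcl2l1) and 9998 bp (Prkag1). At the upper bound, peaks at 49994 bp (Sgsm3) and 49982 bp (Zfp354c) were inside and peaks at 50038 bp (Pex14) and 50044 bp (Mir148a) outside. The widest peaks kept measured 1499 bp (Rhbdl3) and 1498 bp (Mir7657), against 1501 bp (1700049E22Rik) and 1502 bp (Wdr5) for the narrowest left out. The width limit removed 309 peaks of this distance range.

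**Figure D1:**
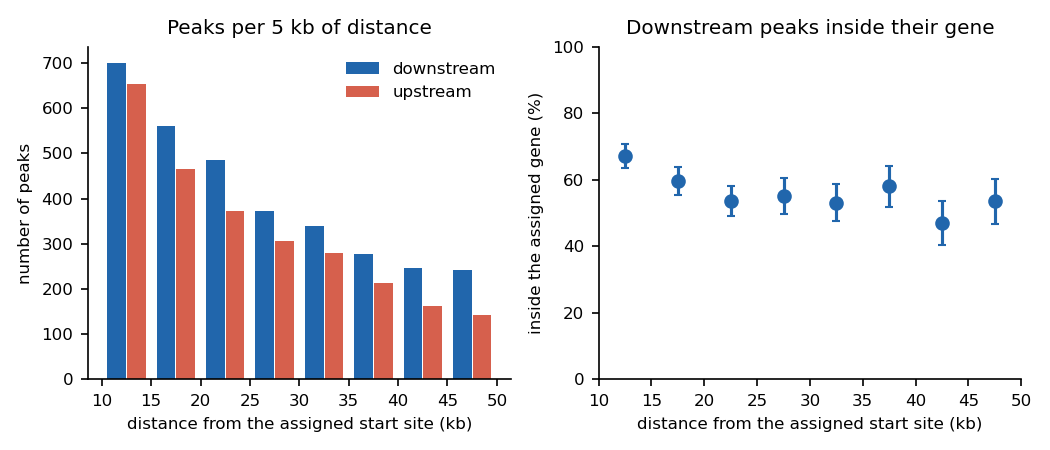
Left, number of peaks per 5 kb of distance (kb) from the assigned TSS, downstream in blue and upstream in red. Right, share (%) of downstream peaks whose midpoint lay inside the assigned gene, with 95% Wilson intervals; counts fell from 701 to 241 downstream, and the share inside was 67.2% in the nearest bin and 53.6% in the farthest.

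Downstream peaks lay both within genes and beyond them. The assigned gene was found in the GENCODE vM1 annotation for 2914 of the 3223 peaks (90.4%). The midpoint was inside that gene for 1682 peaks (57.7%, 95% Wilson interval 55.9 to 59.5%), past its annotated end for 1224 (42.0%) and before every annotated start for 8. The share inside was 67.2% (63.5 to 70.7%) at 10 to 15 kb, and from 20 kb outward it was 47.0 to 58.1% in each bin.

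Peaks past the end lay a median of 12121 bp beyond it (quartiles 6229 and 21178 bp, range 101 to 47878 bp). Only 251 of them (20.5%) were within 5 kb of the end. Another annotated gene covered 325 of the 1224 midpoints, and 899 (73.4%) were intergenic. The assigned genes of these peaks were short, with a median length of 9964 bp, whereas genes with a peak inside had a median length of 68703 bp. Gene length and distance from the TSS together decide whether a peak is inside, so these lengths carry no test.

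Against all GENCODE genes, whatever the assigned one, 1833 midpoints (56.9%, 55.2 to 58.6%) were intronic, 1104 (34.3%) intergenic, 145 (4.5%) in coding exons and 141 (4.4%) in other exons. Upstream peaks were 27.0% intronic and 68.1% intergenic. The downstream minus upstream difference was 29.9 percentage points for introns (95% Newcombe interval 27.5 to 32.3) and -33.8 points for intergenic sequence (-36.2 to -31.4). Coding exons differed by 2.61 points (1.71 to 3.51) and other exons by 1.29 points (0.304 to 2.26). When a peak took the class with the largest overlap in place of its midpoint, 1.58% of downstream peaks were in coding exons. All Wilson and Newcombe intervals here cover counting error over peaks of this list, and not variation between differentiations.

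These differences were set against the sequence available on each side. By distance to the nearest GENCODE protein coding TSS, 421.8 Mb of mm9 outside runs of N lay 10 to 50 kb downstream and 346.5 Mb upstream, a ratio of 1.22. Introns made up 64.3% of the downstream sequence and 29.8% of the upstream sequence. Measured to those TSSs, 3088 peaks were downstream and 2674 upstream, or 7.32 and 7.72 peaks per Mb. These counts differ from those by assigned TSS because the set of start sites differs, and since the sign of the distance chose the peaks the densities of the 2 sides carry no test.

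Within the downstream range, introns held fewer peaks per Mb than intergenic sequence although they held more peaks. The densities were 6.46 peaks per Mb in introns and 8.44 in intergenic sequence, a ratio of 0.766 (0.710 to 0.827). On the upstream side that ratio was 0.902 (0.827 to 0.984). By midpoint, coding exons had 12.4 peaks per Mb and other exons 10.3, from 120 and 138 peaks. These exon densities rest on the midpoint, and by largest overlap fewer peaks fell in exons. Upstream, the densities were 7.04 peaks per Mb in introns and 7.80 in intergenic sequence.

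**Figure D2:**
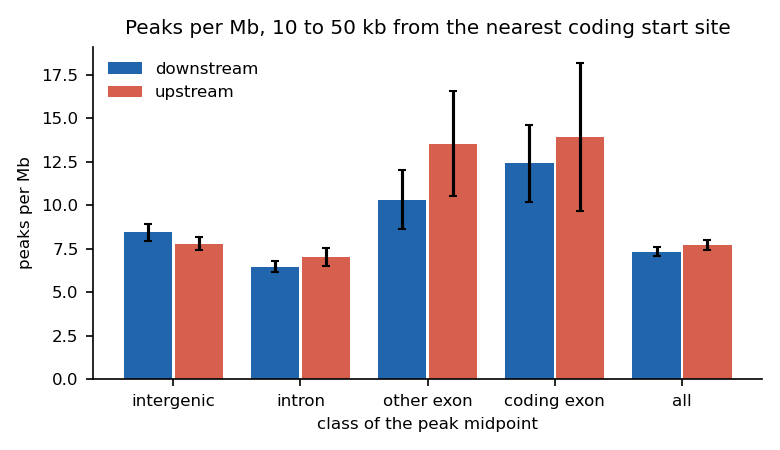
Peaks per Mb of sequence lying 10 to 50 kb from the nearest GENCODE protein coding TSS, by class of the peak midpoint, downstream in blue and upstream in red. Bars start at 0 and error bars are 95% counting intervals (normal approximation); on the downstream side introns had 6.46 peaks per Mb and intergenic sequence 8.44.

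Peaks inside genes were spread over introns in proportion to their length. Of the 1682 peaks inside their assigned gene, 1549 lay in an intron and 133 in an exon of the transcript that gave the distance or, failing that, of the longest coding transcript over the midpoint. For 1491 of the 1549 that transcript started 10 to 50 kb before the midpoint. The first intron held 579 of them (38.8%, 36.4 to 41.3%), the second 309 (20.7%, 18.7 to 22.9%) and later introns 603 (40.4%). In the same transcripts and distance range, first introns made up 38.9% of the intronic sequence, second introns 20.8% and later introns 40.2%. The shares of sequence in first and second introns thus lay within the intervals of the shares of peaks. The densities were 35.3, 35.3 and 35.6 peaks per Mb in first, second and later introns, and since each transcript was taken for holding such a peak they compare introns only with one another.

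Some of these peaks lay close to an annotated TSS other than the assigned one, and whether they acted as promoters was not tested. A GENCODE TSS of any gene type lay within 1 kb of the midpoint for 243 peaks (7.54%, 6.68 to 8.50%), compared with 5.86% of upstream peaks, a difference of 1.68 points (0.379 to 2.96). Peaks of the Vgll4 gene show this, with 1 of 3 only 4 bp from an annotated TSS. CpG-rich sequence, with a GC content of at least 50% and an observed to expected CpG ratio of at least 0.6, is typical of housekeeping promoters. It made up 13.6% of the 243 peaks near a TSS and 3.09% of the others, a difference of 10.5 points (6.69 to 15.4).

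CpG-rich peaks were few at 10 to 50 kb. They numbered 125 of 3223 (3.88%, 3.26 to 4.60%), against 5.32% of upstream peaks, 34.6% of all peaks and 67.9% of the 11772 peaks within 1 kb of their assigned TSS. The median GC content of the downstream peaks was 51.2% (quartiles 48.4 and 54.1%) and the median CpG ratio was 0.231. The corresponding medians of TSS peaks were 58.6% and 0.685. Downstream and upstream peaks differed by -1.44 points in CpG-rich share (-2.56 to -0.365), and GC content at upstream peaks had a median of 50.9%.

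Spacing of the downstream peaks was measured to the nearest other peak of the list. It was a median of 16655 bp away, 865 downstream peaks (26.8%) had one within 10 kb and 60 had one within 1 kb. Over all peaks the median was 17922 bp, and 31.5% had one within 10 kb. Upstream peaks had a neighbour within 10 kb in 28.8% of cases, a difference of -1.97 points with an interval of -4.29 to 0.343. The X chromosome carried 49 of the downstream peaks (1.52%), upstream peaks being 1.16% on X and all peaks 2.37%. On the autosomes the share of a chromosome's peaks that were downstream peaks ranged from 11.4% on chromosome 19 to 15.6% on chromosome 16.

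The motif content of the peak centre was compared with windows of the same length centred 1000 bp to either side. The flanks belong to the same loci, and the difference was computed within each of the 3223 peaks. Of the 16 motifs, 9 were more frequent at the centre with an interval above 0, 3 were less frequent with an interval below 0, and for 4 the interval held 0. Mean GC content was 55.0% at the centre and 46.4% in the flanks, which alone moves the frequency of any word. Each word was therefore also read backwards, which keeps its base composition but can add or remove a CpG.

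TEAD words marked the centres. CATTCC was present in 565 peaks (17.5%, 16.3 to 18.9%) and in 10.1% of flank windows, a difference of 7.38 points (5.87 to 8.90). Read backwards, the word was in 6.30% of centres and 6.21% of flanks. Of the 565 peaks, 481 held the word once and 84 held it at least 2 times. In windows of 100 bp the TEAD share rose from 5.40% at 1000 bp before the midpoint to 9.15% at the midpoint. Among all peaks 11.6% held the word in the centre, and among peaks at the assigned TSS 6.06%.

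CTCF had the steepest profile of the 16. Its word was in 142 centres (4.41%, 3.75 to 5.17%) and in 0.124% of flank windows, a difference of 4.28 points (3.57 to 4.99). The centre to flank ratio was 35.5, which is imprecise because the flank share is near 0. Upstream peaks had the word in 4.90% of centres and 0.116% of flank windows. Over the whole peak, 232 peaks (7.20%) held it. The TSS peaks had it in 0.391% of centres. Where the strand of the assigned gene was known, the word ran with the gene in 66 peaks and against it in 64 (50.8% with the gene, 42.3 to 59.2%). CTCF-bearing peaks held a GATA word less often, 15.5% against 26.4% of the others, a difference of -10.9 points (-16.1 to -3.84), and a TEAD word in 14.1% against 17.7%, with an interval of -8.58 to 3.19 points.

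GATA words, bound by the GATA factors that specify heart muscle, were common but not centred. They occurred in 834 centres (25.9%, 24.4 to 27.4%) and in 29.3% of flank windows, a difference of -3.46 points (-5.32 to -1.60). Read backwards, the same letters were in 15.4% of centres and 23.8% of flanks, although 2 of the 4 backward words still contain GATA. The centre to flank ratio was thus 0.882 for the GATA words and 0.646 for the backward words. At TSS peaks 7.39% of centres held a GATA word. Peaks with a TEAD word held a GATA word in 28.7% of cases and the others in 25.3%, a difference of 3.39 points with an interval of -0.563 to 7.58, and 162 peaks held both.

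The other words fell into groups by their profile. The E-box words CAGCTG and CATCTG, bound by bHLH factors such as Hand and Twist proteins, were in 31.9% of centres and 24.3% of flanks. Read backwards, the E-box words were in 4.5% and 8.5%. The backward word GTCGAC holds a CpG that CAGCTG lacks, so these backward shares are no control. The MEIS word TGACAG, bound by homeodomain factors of the TALE class, was in 19.0% and 13.8%, and read backwards in 10.6% and 10.2%. The SP and KLF word GGGCGG was in 14.4% and 3.27%, and the backward word GGCGGG in 14.3% and 3.17%. Both words are part of the GC box that SP and KLF factors bind, so the backward word is no control here. AP-1 (TGANTCA), SOX (ACAATGG or ACAAAGG), ETS (CCGGAAG) and octamer (ATGCAAAT) words were higher at the centre by 1.69, 1.60, 1.89 and 0.822 points. The backward ETS word was also higher at the centre, 4.10% against 3.07% of flanks, whereas the backward AP-1, SOX and octamer words were lower there. The backward octamer word gains a CpG and the backward ETS word loses that of CCGGAAG, so neither is a control for its word.

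Words of several heart homeodomain factors were not more frequent at the centre. The NKX2-5 word was in 7.69% of centres and 10.5% of flanks, a difference of -2.81 points (-4.01 to -1.61), and backwards in 7.73% and 9.14%. The ISL1 word was in 6.52% and 6.78%, a difference of -0.264 points (-1.30 to 0.773), while its backward form was in 2.54% and 4.13%. The general homeodomain word TAATTA was lower at the centre by -2.20 points (-2.99 to -1.42), while its backward form was in 1.40% and 4.22%. The centre to flank ratio was thus 0.55 for TAATTA and 0.33 for its backward form. T-box, MEF2 and forkhead (TGTTTAC) words, in 1.24%, 0.434% and 3.13% of centres and 1.16%, 0.279% and 2.59% of flanks, had intervals that held 0. Read backwards, they were in 1.33%, 0% and 2.76% of centres and in 1.02%, 0.279% and 4.1% of flanks. None of the 16 motifs was found in 615 centres (19.1%). A word match is a description of sequence, and factor binding was not measured.

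**Figure D3:**
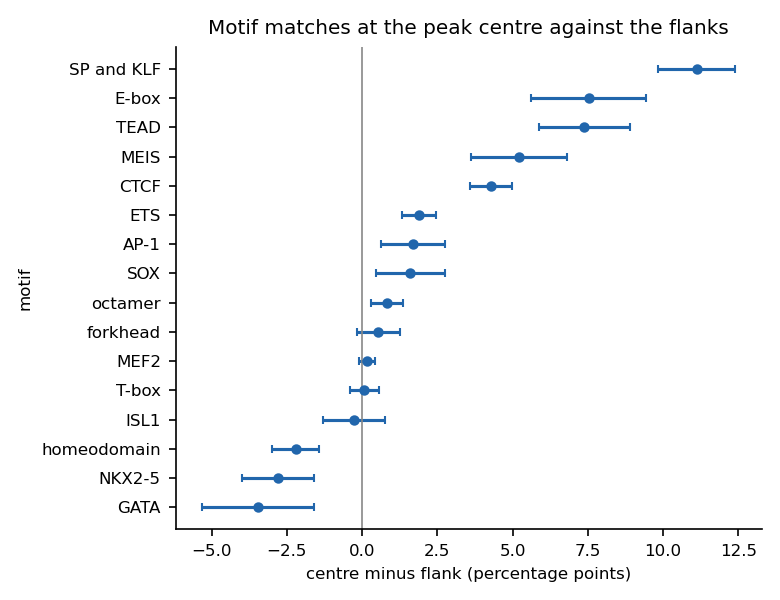
Difference in the share of downstream peaks with a motif match between the central 200 bp and flank windows centred 1000 bp either side, in percentage points, for 16 motifs. Points are mean differences over 3223 peaks and bars 95% intervals; SP and KLF, E-box and TEAD were highest, at 11.1, 7.52 and 7.38 points, and GATA lowest, at -3.46 points.

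**Figure D4:**
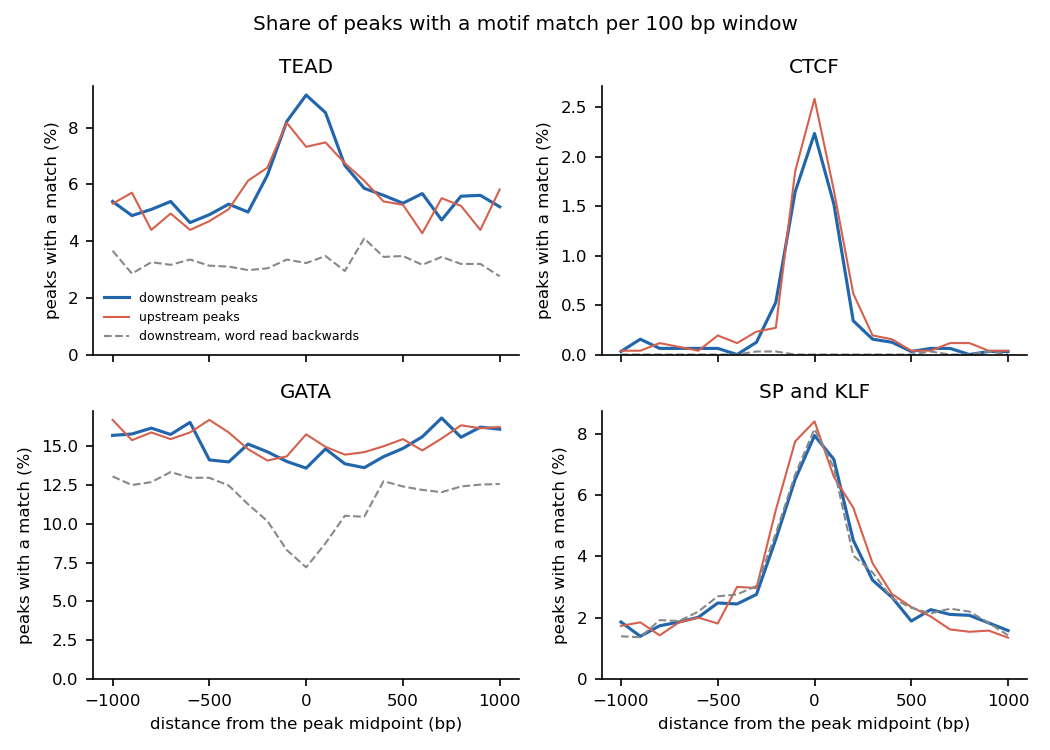
Share (%) of peaks with a motif match in 100 bp windows by distance (bp) from the peak midpoint, for downstream peaks (blue), upstream peaks (red) and the downstream peaks with the words read backwards (dashed grey). TEAD peaks at the midpoint without its backward word. CTCF also peaks there, but its backward word was in at most 0.0310% of peaks in any window, so it is no control. SP and KLF peak together with the backward word. GATA words are at 13.6% at the midpoint against 15.7% and 16.1% at the ends, with the backward words at 7.20% at the midpoint.

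Downstream and upstream peaks had similar motif content. For 13 of the 16 motifs the 95% interval of the difference held 0, including GATA (-1.04 points, -3.33 to 1.23), CTCF (-0.492 points, -1.61 to 0.590) and E-box (0.550 points, -1.86 to 2.95). TEAD was higher downstream by 2.14 points (0.220 to 4.04), from 17.5% and 15.4%. NKX2-5 was lower by -1.56 points (-3.03 to -0.126) and ISL1 by -1.62 points (-2.99 to -0.279). These 3 are from 16 comparisons without adjustment, and with windows of 400 bp the TEAD difference was 1.88 points with an interval of -0.454 to 4.19. In those windows the NKX2-5 difference was -1.14 points (-3.08 to 0.793), and the interval of the forkhead difference lay below 0 (-1.39 points, -2.67 to -0.142). The ISL1 difference there was -1.82 points, with an interval still below 0 (-3.57 to -0.0969).

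Between peaks inside the gene and past its end, the interval of the difference excluded 0 for 3 of 16 motifs, without adjustment and with no other setting tried. TEAD words were in 18.8% of centres inside and 15.7% past the end, a difference of 3.10 points (0.305 to 5.84). SOX words, in 9.27% and 7.19%, differed by 2.09 points (0.0384 to 4.07). SP and KLF words ran the other way, in 12.5% and 17.7%, a difference of -5.24 points (-7.94 to -2.61). The CpG-rich share was also lower inside, 3.09% against 5.15%.

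The 3223 peaks were assigned to 2684 of the 15351 genes of the list (17.5%). One peak was assigned to 2229 genes, 2 to 379, 3 to 71, and 4 to Lrrfip1, Rbx1, Chst14 and Apol7a. Rgs3, a regulator of G-protein signalling, had 7. Upstream peaks were assigned to 2165 genes, and 420 genes had both, which is 15.6% of the genes with a downstream peak and 19.4% of those with an upstream one. Symbols starting with Mir, mostly microRNAs named as the nearest start, accounted for 114 of the peaks.

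At Rgs3 on chromosome 4 the 7 peaks lay 10498 to 48287 bp from the starts used. Those distances were measured from several alternative starts, since the peaks spread from chr4:62243919-62245061 to chr4:62382765-62383826. The midpoints of those at 23608, 14992 and 25774 bp lay only 145, 287 and 69 bp from an annotated TSS of any gene type. For the other Rgs3 peaks that distance was 2105 to 8037 bp. Of the 7, 5 were inside the gene and 2 were 5068 and 19244 bp past its end, both in an intron of another gene. The 4 peaks of Lrrfip1, at 18630 to 45549 bp, were intronic, and the 2 farthest held GATA, TEAD and SOX words. These distances too were measured from more than 1 start, as the peaks spread from chr1:92913420-92914449 to chr1:92995241-92995900. Those of Rbx1, Chst14 and Apol7a were past the end of their gene and intergenic, 344 to 38031 bp, 11450 to 47878 bp and 19936 to 31617 bp beyond it.

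Genes with a downstream peak had a peak within 1 kb of a TSS in 1594 of 2684 cases (59.4%, 57.5 to 61.2%). Genes with an upstream peak did so in 59.7%, and all genes of the list in 74.6%. Every gene here entered the list through some peak, and a gene whose only peak is at its TSS counts in the last share, so the last share is not a background rate. Among genes whose peaks were inside only, 71.4% of 1374 had a TSS peak, against 53.2% of 986 whose peaks were past the end only. The difference of 18.1 points had an interval of 14.2 to 22.0, and among genes with protein coding accessions it was 15.8 points (11.8 to 19.9).

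Gene lists were examined to see which heart genes carried such peaks. Lists of cardiac transcription factors, Hippo and TEAD genes, signalling genes of the heart fields and sarcomere genes had a downstream peak at 10 of 33, 4 of 17, 12 of 29 and 5 of 19 of their genes with any peak. Together this was 31 of 98 (31.6%), beside 17.5% of all genes. An upstream peak was assigned to 28 of the 98 (28.6%), beside 14.1% of all genes. Genes of these lists had a median of 3 peaks of any kind and all genes a median of 1, and the part of that in the counts was not tested. Of the 41 peaks concerned, 20 (48.8%) held a GATA word and 10 (24.4%) a TEAD word in the centre, beside 25.9% and 17.5% of all downstream peaks.

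**Figure D5:**
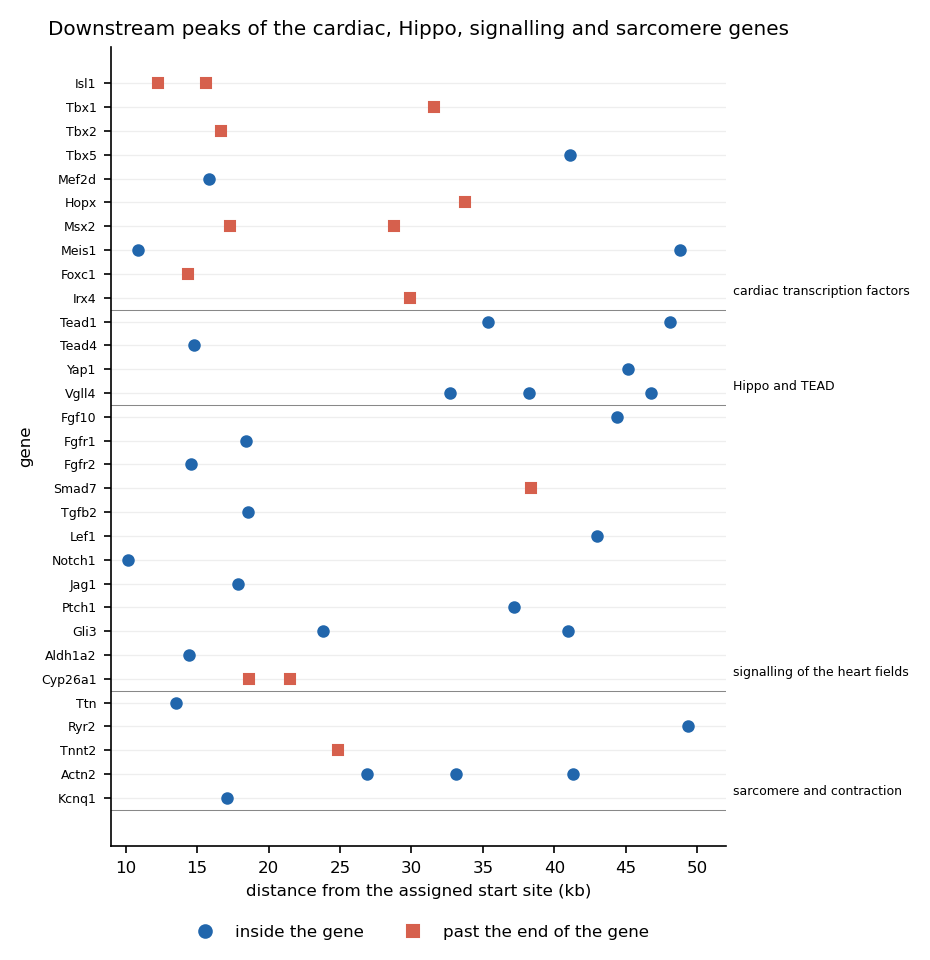
Distance (kb) of each downstream peak from the assigned TSS for genes of 4 lists, 1 gene a row. Blue circles are peaks inside the gene and red squares peaks past its end; the 7 Hippo and TEAD peaks are inside, and 9 of the 13 peaks of cardiac transcription factors are past the end.

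Cardiac transcription factors had 13 peaks at 10 genes, 4 inside and 9 past the end, and 8 of them held a GATA word. Besides Isl1, Msx2, a homeodomain factor of the valves and outflow tract, had 2 past its end, chr13:53538975-53539737 at 28794 bp and chr13:53550486-53551264 at 17275 bp. Meis1, a TALE homeodomain factor, had 2 in introns, at 10870 and 48808 bp (chr11:18907375-18908830 and chr11:18869800-18870529), both with a GATA word. Tbx5, a T-box factor of the first heart field, had 1 peak in its last intron at 41079 bp with a GATA word, and single peaks were assigned to Tbx1, Tbx2, Mef2d, Hopx, Foxc1 and Irx4.

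Hippo pathway genes had 7 peaks at 4 genes, and each lay inside its gene, beside 57.7% of all matched downstream peaks. The part of gene length in this was not tested. Vgll4, a TEAD cofactor that competes with YAP, had 3 in the third intron at 32662, 38200 and 46737 bp, of which chr6:114838516-114839701 held a TEAD word. Tead1 had 2 in its second intron at 35371 and 48057 bp (chr7:119937757-119938783 and chr7:119950387-119951524). Tead4 had 1 in its first intron at 14785 bp with TEAD and GATA words. Yap1 had 1 in the fourth intron at 45159 bp with a GATA word.

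Signalling genes had 14 peaks at 12 genes, 11 of them inside. Enzymes of retinoic acid synthesis and breakdown were among them. Aldh1a2, which makes retinoic acid, had 1 peak in its first intron at 14422 bp. Cyp26a1, which breaks it down, had 2 past its end at 18663 and 21527 bp (chr19:37790469-37791454 and chr19:37793303-37794348), 1848 bp apart. Gli3, a transcription factor of Hedgehog signalling, had 2 in its second intron at 23778 and 40968 bp (chr13:15579075-15579594 and chr13:15596166-15596883), and both held a GATA and a TEAD word. The Hedgehog receptor Ptch1, the FGF ligand Fgf10 with its receptors Fgfr1 and Fgfr2, Notch1 with its ligand Jag1, Tgfb2, the inhibitory Smad7 and the Wnt effector Lef1 each had 1.

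Sarcomere and contraction genes had 7 peaks at 5 genes. Actn2 had 3, in introns at 26895, 33135 and 41284 bp (chr13:12405837-12406372, chr13:12399496-12400234 and chr13:12391276-12392155), and a GATA word was in the centre of each. Ryr2, the calcium release channel, had 1 at 49336 bp in its first intron, also with a GATA word. Ttn, the giant spring protein of the sarcomere, had 1 at 13505 bp, and it was the only peak of the list assigned to Ttn. Single peaks were assigned to Tnnt2, past its end, and to the potassium channel gene Kcnq1.

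Lists of other cell types and processes also had downstream peaks. The counts were 4 of 15 endothelial and blood genes (26.7%; Kdr, Runx1, Sox18 and Nfatc1) and 2 of 11 smooth muscle genes (18.2%; Myh11 and Myl9). Extracellular matrix genes had 7 of 19 (36.8%), neural genes 5 of 16 (31.25%) and pluripotency genes 4 of 12 (33.3%), shares near or above the 31.6% of the heart lists together. Over all genes the share was 17.5%. The liver list had 1 of 7 (14.3%; Foxa2). Subunits of SWI/SNF, the chromatin remodelling complex, had 0 of 19, and these genes had a median of 1 peak each. That median was 3 for matrix and pluripotency genes, 2 for neural, endothelial and smooth muscle genes and 1 for liver genes and over all genes. Upstream peaks were at 21.1% of matrix, 12.5% of neural, 58.3% of pluripotency and 42.9% of liver genes. They were at 13.3% of endothelial, 0% of smooth muscle and 10.5% of SWI/SNF genes, beside 14.1% of all genes. The endothelial Kdr peak and the endocardial Nfatc1 peak each held GATA and TEAD words, whereas the Runx1 and Sox18 peaks held neither. Over all downstream peaks 5.03% held both.

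Markers were checked by peaks within 1 kb of the assigned TSS, since expression was not measured. Of 8 cardiac progenitor markers 6 had one (Nkx2-5, Isl1, Tbx5, Mef2c, Tbx20 and Myocd, not Gata4 or Hand2). So did 2 of 4 ES cell markers (Zfp42 and Esrrb, not Pou5f1 or Nanog), 1 of 4 endothelial markers (Kdr) and 2 of 3 neural markers (Pax6 and Sox1). The share was 74.6% over all genes of the list, which covers only genes with a peak and so is no background rate for these markers. The part of cells other than CPCs in the downstream peaks was not tested.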

How the data were processed

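ATAC-seq of day 5 CPCs gave 2 samples of 1 group. Per the study's methods and the submitters' processing notes, reads were mapped to mm9 with bowtie2 and filtered with samtools and Picard 1.136. MACS14 then called peaks separately for either replicate. Blacklisted peaks were removed, and bedtools 2.15 retained those of 1 replicate that shared at least 1 bp with the other. An interval thus has the coordinates of 1 replicate and a width that depends on the caller. No correction for the Tn5 cut position is described apart from a fixed shift at peak calling. The deposited values, in the unit other, are interval starts and ends in bp, the signed distance in bp to a TSS, an accession and a symbol. The authors' list holds no score or count, so depth is unknown, and a region without a peak was not shown to be closed.

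The 26429 lines held 26232 distinct intervals, read as BED, and positions are 1-based. NCBIM37 (mm9) supplied the sequence and GENCODE vM1 the annotation. The assigned gene was matched by symbol for 2705 peaks and by another name for 209, within 10 kb of the deposited distance, and for 1894 the distance equalled that to an annotated TSS within 1 bp. Gene extents for the rest came from the annotation alone. Sequence per side was counted on a grid of 100 bp.

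Motif words were searched on both strands with Python 3.11.15, and no word of a motif contained a word of another. Shares have 95% Wilson intervals, differences Newcombe intervals, centre minus flank differences normal intervals over peaks, and ratios of densities exact binomial ones. The scan and the intervals were tested on simulated data. With 1 group and no value per replicate, no test over samples was possible. Genes were named by rule where they had the most peaks (at least 5, and here also the 4 with 4), were listed with at least 2, or were Isl1. Values of other single peaks were picked after they had been seen. Windows were printed for peaks of the 4 heart lists with the most of the 6 motifs. The peaks, 11 gene lists and motifs were chosen with earlier results of these data known. One listed gene is not reported here and was left out of its list. The cardiac and signalling lists overlap with genes the study chose, so they are not independent of it.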

Additional observations from a re-analysis of the deposited data

How the results depend on the processing

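Neither replicate could be left out, because the list has no values per replicate. No paired analysis was possible because both samples belong to a single group. Of 198 combinations of a result and an alternative setting, 147 kept the value within its interval or its side of 0, or a count within 1.5 times, and 0 reversed. The alternative flank windows and the words read backwards were chosen after seeing the data.

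The share inside the assigned gene was 59.5% with protein coding transcripts only and 59.7% with only distances that equal an annotated TSS. By largest overlap in place of the midpoint, 60.7% of peaks were intronic, 1.58% in coding exons and 3.10% in other exons. With protein coding genes only, 36.4% were intergenic and 3.47% in other exons. Longer windows hold more words by construction. In 300 bp, GATA reached 35.3%, TEAD 23.6% and CTCF 5.77% of peaks, and in 400 bp 42.9%, 29.1% and 6.39%. The TEAD difference from upstream peaks fell to 1.88 points in 400 bp, with an interval that held 0. There the interval of the NKX2-5 difference also held 0, while those of the forkhead and ISL1 differences lay below 0. Median GC content was 55.0% in the central 200 bp and 51.0% for peaks over 2 kb from every TSS. The share of genes with a TSS peak was 62.1% within 2 kb and 72.4% by overlap with 500 bp around any annotated TSS. Up to 25 kb the genes with a downstream peak numbered 6 cardiac factors, 1 Hippo, 3 sarcomere, 0 smooth muscle, 4 matrix and 3 neural. Without the width limit 2 SWI/SNF genes had one. Unknown depth limits every count, since regions called in 1 replicate alone are not listed.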
